A study of Mus musculus with 8 samples.

Results

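Endoglin (Eng), the receptors that bind TGF-beta and bone morphogenetic proteins (BMPs), and the ligand gene Tgfb2 were measured in the cerebral cortex of newborn mice. The set holds 10 of the 53392 genes in the files, taken by symbol: the co-receptors Eng and Tgfbr3, the type I receptors Acvrl1, Tgfbr1, Bmpr1a, Bmpr1b and Acvr1, the type II receptors Tgfbr2 and Bmpr2, and Tgfb2. The set was proposed with earlier results of the same comparison known, so the differences between genotypes are given for these 10 genes as a description, and nothing is read from any test of them. Messenger RNA was sequenced in 8 libraries of cortex from FVB/N mice at postnatal day 0, 4 from mice with the R342X mutation in Phf6, labelled mutant, and 4 from wild-type mice. Phf6, on the X chromosome, encodes a chromatin-associated protein of the nucleus, and R342X is a change to a stop codon. The labels give no sex, zygosity, litter or number of animals, so p-values speak only of how far these libraries vary, and that variation may be technical.

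Ligands of this family bind pairs of type I and type II receptors, both of which are serine/threonine kinases. The type II receptor phosphorylates the type I receptor, which phosphorylates Smad proteins that enter the nucleus and control target genes. Endoglin and betaglycan (the product of Tgfbr3) are co-receptors without a kinase that present ligand to these complexes. Endoglin and the type I receptor ALK1 (the product of Acvrl1) are known from endothelial cells, where they mediate signalling by BMP9 and BMP10, and human mutations in either gene cause hereditary haemorrhagic telangiectasia, a disease of malformed vessels.

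Endoglin is made in a long and a short form that differ in the tail inside the cell, and the sequences that tell the forms apart are shown because the files assign reads to each of them. Both come from the plus strand of chromosome 2 (GRCm38, GENCODE M21). The long transcript Eng-201 has 15 exons and 653 codons. The short transcript Eng-202 has 14 exons and 641 codons, since it reads on into the intron after exon 14. The lines give the last 30 bases that both share, at positions 32681268 to 32681297, in lower case and the coding bases of each form alone in capitals, up to the stop codon. The capitals are 122 bases at 32681437 to 32681558 for Eng-201 and 86 bases at 32681298 to 32681383 for Eng-202.
Eng-201: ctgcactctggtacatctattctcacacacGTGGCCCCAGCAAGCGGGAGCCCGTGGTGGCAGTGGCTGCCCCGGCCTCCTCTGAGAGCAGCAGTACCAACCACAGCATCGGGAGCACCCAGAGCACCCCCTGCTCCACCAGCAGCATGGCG
Eng-202: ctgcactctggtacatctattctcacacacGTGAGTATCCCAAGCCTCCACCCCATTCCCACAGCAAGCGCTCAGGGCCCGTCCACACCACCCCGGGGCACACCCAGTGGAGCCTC

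The 250 bases before the RefSeq start of Eng (GRCm38.p6, chr2:32646345-32646594, plus strand) are printed because Eng was the gene of the set whose genotypes stood apart. Capitals mark CAGAC, the core of a Smad-binding element, on either strand (GTCTG on the opposite one).
Eng: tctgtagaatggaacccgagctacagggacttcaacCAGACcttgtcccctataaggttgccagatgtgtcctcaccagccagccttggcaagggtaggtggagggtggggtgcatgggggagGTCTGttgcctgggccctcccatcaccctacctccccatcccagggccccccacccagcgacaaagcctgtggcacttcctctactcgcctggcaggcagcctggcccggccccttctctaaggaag
CAGAC occurred 2 times there, and 42.2% of the 32851 RefSeq promoters of the same length held it at least once, 11.7% at least as often as Eng. Of the 8 genes of the set with a promoter in the RefSeq table, Tgfb2 also held 2 copies, Bmpr1b and Tgfbr2 held 1 each, and Tgfbr1, Bmpr1a, Acvr1 and Bmpr2 held 0. GGAA, the core of ETS sites (TTCC on the opposite strand), occurred 3 times before Eng, with a median of 3 over all promoters and 93.4% holding it at least once. GGGCGG and GGCGCC were also searched and occurred 0 times before Eng. Of all promoters, 32.7% held GGGCGG and 9.59% held GGCGCC at least once. A match, or the lack of one, is a description of letters only.

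Library depth and other facts of the series bear on all values. Mutant libraries held 30469478 to 39452913 estimated reads and wild-type libraries 48841188 to 74266660, so each wild-type library was deeper. Phf6 was at 39.3 to 43.6 CPM in mutants against 72.1 to 91.9 CPM for wild type. CPM is the read count relative to the TMM-scaled total of the library. The first principal component of log2 CPM, with 35.3% of the variance, split the 8 libraries into 2 sets, with mutant replicates 1 to 3 and wild-type replicate 1 in set 1 and mutant replicate 4 and wild-type replicates 2 to 4 in set 2. Genotype and set are partly mixed, and no label explains the sets, so differences within each set are given beside the pooled ones, with 1 library on one side of each. In this bulk tissue, fewer cells of a type and less RNA per cell cannot be told apart.

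All 10 genes passed the filter on low counts, with 231 to 11925 reads per library. Per length, on the TPM scale, the receptors spread over an order of magnitude in wild type. Acvr1, the type I receptor also called ALK2, stood highest at 39.8 ± 1.73 TPM (SD, n = 4), and Tgfbr1, the type I receptor for TGF-beta, followed at 37.9 ± 2.16 TPM. Their ranges overlapped. Bmpr2 (25.0 ± 3.76 TPM) and Bmpr1a (23.0 ± 1.43 TPM), the type II and the widely expressed type I receptor for BMPs, formed the next overlapping pair. Tgfb2 (14.1 ± 0.76 TPM) and Eng (13.9 ± 1.51 TPM) overlapped below them. Tgfbr2, the type II receptor for TGF-beta, was at 7.35 ± 0.78 TPM and Acvrl1 at 5.60 ± 0.65 TPM, each apart from its neighbours. Bmpr1b, at 3.80 ± 0.91 TPM, and Tgfbr3, at 3.48 ± 0.34 TPM, were lowest and overlapped. In mutants Eng, at 18.5 ± 0.91 TPM, stood apart from and above Tgfb2, at 14.6 ± 1.30 TPM, and Bmpr1b was the lowest, at 3.23 ± 0.49 TPM, with a range that overlapped that of Tgfbr3.

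**Figure D1:**
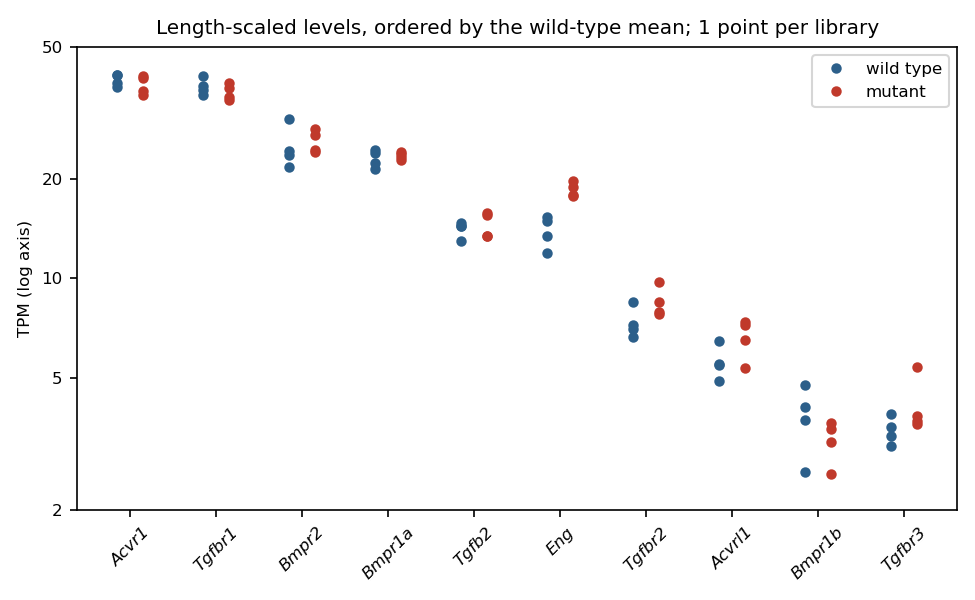
TPM of each gene on a log axis, with genes ordered by the wild-type mean and 1 point per library (blue wild type, red mutant). Acvr1 and Tgfbr1 lie between 34.5 and 41.3 TPM over both genotypes, Bmpr1b and Tgfbr3 between 2.57 and 5.40 TPM, and the mutant points of Eng (17.7 to 19.6 TPM) lie above its wild-type points (11.97 to 15.3 TPM).

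Among the co-receptors, Eng (ENSMUSG00000026814, chromosome 2, 32646595 to 32682669, plus strand) was higher in every mutant library than in any wild-type library. It stood at 29.1, 29.9, 29.0 and 30.1 CPM in the mutants, replicates in order, against 24.5, 20.5, 23.1 and 22.4 CPM in wild type. The mutants lay within about 1 CPM of each other, and the genotypes did not overlap. The means were 29.5 ± 0.55 CPM and 22.6 ± 1.64 CPM (SD, n = 4 each). The mutant mean was 130% of that in wild type, a log2 fold change of 0.38 ± 0.06 (SE). Within set 1 the log2 difference was 0.26 and within set 2 it was 0.45. Of all tested genes, 592 (2.95%) were higher and 643 (3.2%) lower with no overlap and 10.4% had a fold of at least this size in either direction. Since Eng was chosen with this comparison known, nothing is read from its place among them. The last 61 bases of Eng overlap exons of Fpgs, which encodes a folate enzyme on the opposite strand, out of 4048 exonic bases of Eng. The use of strand is not given in the sources used here, so reads there cannot be told apart. Fpgs was at 20.6 to 26.0 CPM in mutants against 19.1 to 24.9 CPM for wild type (log2 fold change -0.03 ± 0.10).

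The long and the short form of endoglin were both at higher mean levels in mutants, and the ranges of their proportion overlapped. The long form is the sum of Eng-201 and Eng-205, which codes for 1 amino acid fewer. This sum was at 14.0, 13.2, 14.2 and 13.03 TPM in mutant replicates 1 to 4 and 11.5, 9.75, 10.5 and 8.83 TPM in wild-type replicates 1 to 4, with no overlap. Taken alone, each transcript overlapped between genotypes. Eng-201 was at 8.18 to 10.8 TPM in mutants against 6.98 to 9.31 TPM for wild type. Eng-205 was at 3.11 to 5.80 TPM in mutants against 1.24 to 3.47 TPM for wild type. The short form was at 2.85, 4.12, 1.56 and 3.39 TPM in mutants and 2.45, 1.06, 1.71 and 2.85 TPM in wild type, so its ranges overlapped. The short form made up 17.8% ± 5.98 of the sum of both in mutants and 16.4% ± 6.17 in wild type (SD, n = 4 each). Its estimates rested on 89.7 to 310.1 reads per library, and the error of assigning reads to transcripts is unknown.

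Tgfbr3 (ENSMUSG00000029287, chromosome 5, 107106570 to 107289629, minus strand), the other co-receptor, differed by 1 library. It stood at 11.3, 11.1, 11.5 and 17.8 CPM in the mutants, replicates in order, against 9.78, 11.2, 12.6 and 12.5 CPM in wild type. Only mutant replicate 4 lay outside the wild-type range. The log2 fold change was 0.16 ± 0.16 with all libraries and -0.03 ± 0.10 without mutant replicate 4. With the set, a split taken from these data, as a second term it was 0.39 ± 0.08, with 0.21 within set 1 and 0.56 within set 2, where replicate 4 is the only mutant.

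**Figure D2:**
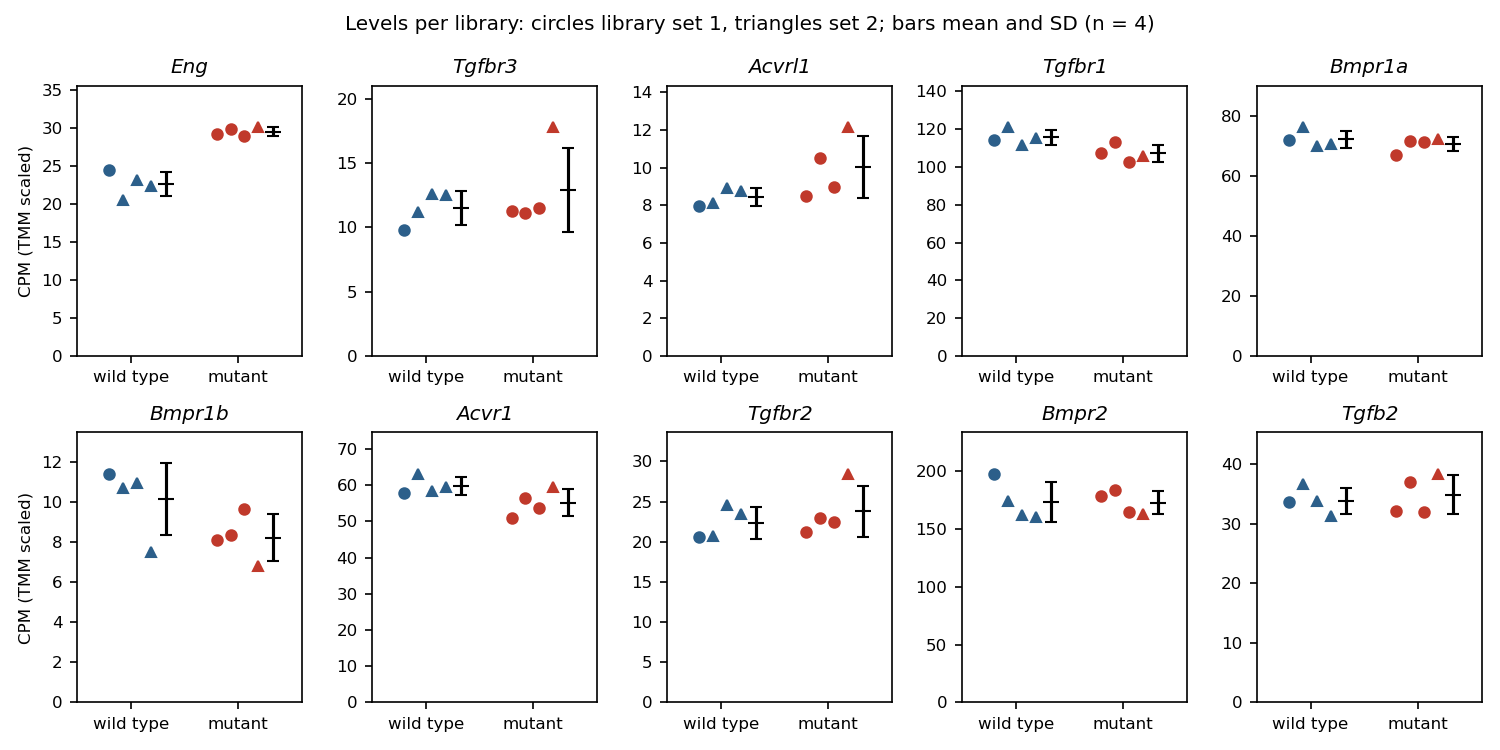
CPM of each of the 10 genes in each library (blue wild type, red mutant; circles library set 1, triangles set 2), with the mean and SD of each genotype (n = 4) in black and axes that start at 0. Only the panel of Eng shows genotypes that do not overlap, and mutant replicate 4, the red triangle, is the highest point for Tgfbr3 (17.8 CPM), Acvrl1 (12.2 CPM) and Tgfbr2 (28.5 CPM).

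Among the type I receptors, Acvrl1, the partner of endoglin, was at a higher mean level in mutants, and the other 4 were at lower means. Acvrl1 (ENSMUSG00000000530, chromosome 15, 101128522 to 101145336, plus strand) stood at 8.503, 10.5, 8.99 and 12.2 CPM in the mutants, replicates in order, against 7.96, 8.15, 8.92 and 8.75 CPM in wild type. Of the mutants, 3 lay above all wild-type libraries and replicate 1 lay among them. The log2 fold change was 0.25 ± 0.11 and the differences were 0.22 in set 1 and 0.50 in set 2. Without mutant replicate 4 it was 0.14 ± 0.10. The share of its most abundant transcript, Acvrl1-205, ran from 31.9% to 78.0% over the libraries, so no reading by transcript was made.

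Bmpr1b (ENSMUSG00000052430, chromosome 3, 141837136 to 142169425, minus strand), a BMP receptor of restricted expression, had the lowest ratio of the set, at 81.1% of the wild-type mean. It stood at 8.10, 8.38, 9.68 and 6.82 CPM in the mutants, replicates in order, against 11.4, 10.7, 10.98 and 7.52 CPM in wild type. Wild-type replicate 4 lay below 3 of the mutants, so the genotypes overlapped. The log2 fold change was -0.30 ± 0.15, with set 1 at -0.39 and set 2 at -0.49.

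The remaining type I receptors, which are far more abundant, differed by less. Tgfbr1 (ENSMUSG00000007613, chromosome 4, 47353222 to 47414931, plus strand) was at 107.4, 113, 102 and 106 CPM in mutants against 114, 121, 112 and 115 CPM for wild type. Mutant replicate 2 lay within the wild-type range and the other 3 below it. Its log2 fold change was -0.11 ± 0.05, with -0.09 in set 1 and -0.13 in set 2, and the difference of log2(TPM + 0.1) was -0.05. Acvr1 (ENSMUSG00000026836, chromosome 2, 58388644 to 58567157, minus strand) was at 50.9, 56.4, 53.7 and 59.5 CPM in mutants against 57.9, 63.2, 58.5 and 59.5 CPM for wild type, where replicate 4 of the mutants was among the wild-type values. Its log2 fold change was -0.12 ± 0.06, with -0.11 within set 1 and -0.02 within set 2. It was -0.07 ± 0.05 with the set as a second term and -0.05 as a difference of log2(TPM + 0.1). With 1 library left out it ranged from -0.16 without mutant replicate 4 to -0.08 without mutant replicate 1. Bmpr1a (ENSMUSG00000021796, chromosome 14, 34410734 to 34503341, minus strand) was at 67.1 to 72.4 CPM in mutants against 69.9 to 76.3 CPM for wild type (-0.03 ± 0.05). The difference was -0.04 within set 1 and 0.00 within set 2, and the sign turned on the TPM scale (0.03).

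The type II receptors showed no separation of the genotypes. Tgfbr2 (ENSMUSG00000032440, chromosome 9, 116084293 to 116175360, minus strand) stood at 21.3, 22.9, 22.4 and 28.5 CPM in the mutants, replicates in order, against 20.6, 20.8, 24.6 and 23.5 CPM in wild type. Mutant replicate 4 was the only mutant above the wild-type range. Its log2 fold change was 0.09 ± 0.10 with all libraries and -0.01 ± 0.08 without that library. It was 0.21 ± 0.07 with the set as a second term, 0.11 within set 1, 0.32 within set 2 and 0.20 as a difference of log2(TPM + 0.1). The transcript Tgfbr2-201, with 567 codons, made up 62.7% ± 1.68 of Tgfbr2 TPM in mutants and 58.6% ± 4.42 in wild type, and Tgfbr2-202, with 592 codons, made up the rest. Bmpr2 (ENSMUSG00000067336, chromosome 1, 59763400 to 59879014, plus strand) was at 163 to 183 CPM in mutants against 160.2 to 198 CPM for wild type, with wild-type replicate 1 the highest library. Its log2 fold change was -0.01 ± 0.07, with -0.17 within set 1, -0.02 within set 2 and -0.10 ± 0.05 with the set as a second term. Its sign turned without mutant replicate 3 or 4, without wild-type replicate 1, and on the TPM scale.

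Tgfb2 (ENSMUSG00000039239, chromosome 1, 186622792 to 186705989, minus strand), which encodes a ligand that needs betaglycan to bind its receptors with high affinity, was at 32.1, 36.9, 32.0 and 38.4 CPM in mutants against 33.7, 36.6, 33.8 and 31.2 CPM for wild type. The ranges overlapped, the log2 fold change was 0.04 ± 0.08, and it was -0.01 ± 0.07 without mutant replicate 4. It was -0.00 within set 1, 0.18 within set 2 and 0.09 ± 0.07 with the set as a second term.

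Over the set, 5 genes had a log2 fold change above 0 and 5 below 0, with a median of 0.02, while the median over all 20097 tested genes was 0.00 and 50.3% of them were above 0. In edgeR's quasi-likelihood fit on genotype alone 0 of the 10 genes were called at a Benjamini-Hochberg adjusted p under 0.05, where 0.0199% of all tested genes were called. DESeq2's Wald test and edgeR with the set as a second term each called 1 of the 10, Eng, with 2.48% and 0.602% of all genes called. Leaving out mutant replicate 4 or wild-type replicate 1 also gave Eng alone, with 3.37% and 0.07% of all genes called. The authors' deposited table called 2 of the 10, Eng and Tgfbr3, with 2.78% of its genes called. In the authors' deposited table the log2 fold changes were 0.32 ± 0.09 for Eng, 0.37 ± 0.11 for Tgfbr3, 0.19 ± 0.11 for Tgfbr2, 0.03 ± 0.06 for Acvrl1 and -0.32 ± 0.19 for Bmpr1b, each with its standard error. The genes were chosen on this comparison, so these counts are given without a reading.

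**Figure D3:**
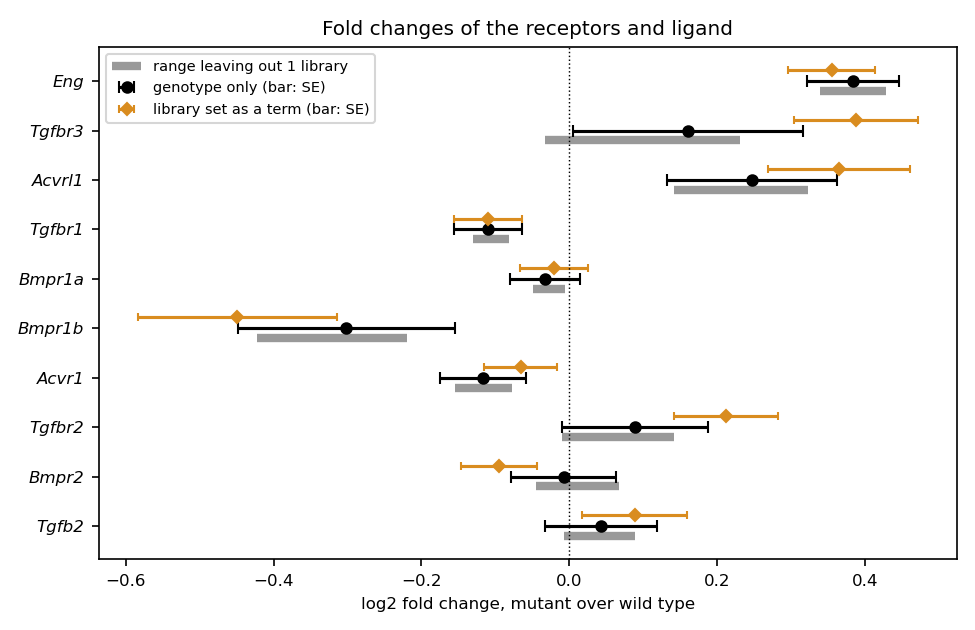
Log2 fold change of each gene, mutant over wild type, from the fit on genotype alone (black, SE), with the set as a second term (orange, SE) and the range over 8 fits that each leave out 1 library (grey). Eng keeps 0.34 to 0.43 in the grey range, while the grey bars of Tgfbr3, Tgfbr2, Bmpr2 and Tgfb2 cross 0.

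Endothelial genes are described beside Eng, and since Eng was chosen with this comparison known, nothing is read from the size of its fold against theirs. Of 18 endothelial markers, such as the junction genes Cdh5 and Pecam1 and the VEGF receptors Kdr and Flt1, 12 had a log2 fold change above 0 with a median of 0.08 (edgeR called 0, and 1 had an unadjusted p under 0.05, Flt1 at 0.14 ± 0.05, adjusted p = 0.313). Their summed level was 467 to 586 CPM in mutants against 437 to 519 CPM for wild type, and no marker was at 0 in any library. Eng amounted to 6.24%, 6.21%, 6.20% and 5.13% of this sum in mutant replicates 1 to 4 and 5.60%, 4.44%, 4.45% and 4.38% in wild-type replicates 1 to 4. The share was highest in mutant replicates 1 to 3, and mutant replicate 4 lay below wild-type replicate 1. On this scale, chosen after the data were seen, the mean log2 difference was 0.34. Acvrl1 amounted to 2.00% ± 0.16 of the endothelial sum in mutants and 1.75% ± 0.05 in wild type, and Tgfbr2 to 4.75% ± 0.13 and 4.63% ± 0.11 (SD, n = 4 each).

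Sums over markers of other cell types that can express these receptors were read in the same libraries. The summed level of 6 smooth muscle markers was 16.2 to 26.5 CPM in mutants against 14.3 to 16.8 CPM for wild type, with Acta2, the smooth muscle actin, at 0.70 ± 0.21 (edgeR adjusted p = 0.244). For 11 meningeal fibroblast markers the sum was 496 to 773 CPM against 466 to 615 CPM, with Aldh1a2 at 0.29 ± 0.12 (adjusted p = 0.344), and 9 markers were above 0. For 12 microglial and border macrophage markers it was 136 to 164 CPM against 122 to 141 CPM, with 11 above 0 and Lyve1, a marker of border macrophages, at 0.52 ± 0.15 (adjusted p = 0.244). For 8 pericyte markers it was 194 to 261 CPM against 197 to 238 CPM, with 5 above 0 and Cspg4, which had the smallest p, at 0.25 ± 0.08 (adjusted p = 0.283). No marker of these lists was at 0 in any library. Mutant replicate 4 held the highest sum in the endothelial, pericyte, smooth muscle, meningeal and macrophage lists, and it was also the highest library for Tgfbr3, Acvrl1, Tgfbr2, Tgfb2 and Eng. Without it the mean log2 difference of the sums was -0.03 for endothelial, -0.08 for pericyte, 0.14 for smooth muscle, 0.01 for meningeal and 0.14 for macrophage markers, and the log2 fold change of Eng was 0.37 ± 0.07. The part of these cell types in the values of Eng, Tgfbr3, Acvrl1 and Tgfbr2 was not tested.

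**Figure D4:**
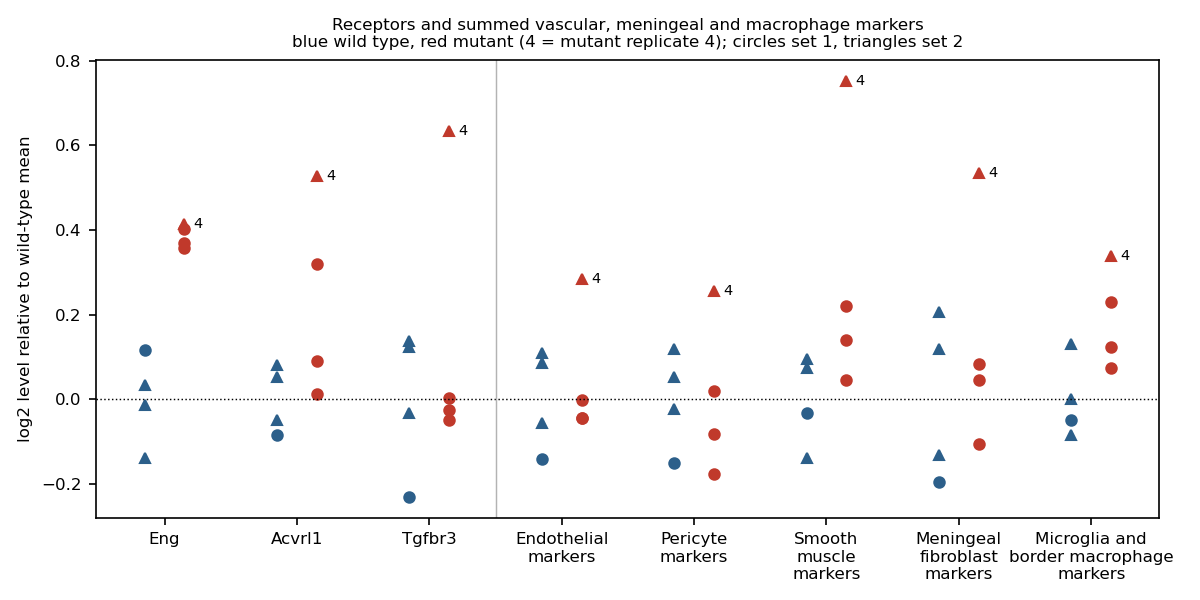
Log2 level of Eng, Acvrl1 and Tgfbr3 and of 5 summed marker lists in each library, relative to the wild-type mean (blue wild type, red mutant; circles library set 1, triangles set 2; 4 marks mutant replicate 4). The mutants of Eng lie together and above wild type, while for Tgfbr3 and the marker lists mutant replicate 4 lies above the other mutants.

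Lists of other tissue were as follows. Cortical neuron markers summed to 5036 to 5205 CPM in mutants against 5234 to 5363 CPM for wild type, with every mutant sum below every wild-type sum. Of the 9 markers 5 were above 0, against the direction of the sum. Neurod6, with the smallest p, was at -0.27 ± 0.06 (adjusted p = 0.180), while Slc17a7, named after its value was seen, was at 0.30 ± 0.08 (adjusted p = 0.225). Astrocyte markers summed to 635 to 741 CPM against 513 to 614 CPM, with 5 of 6 above 0 and Apoe at 0.30 ± 0.07 (adjusted p = 0.181), and here every mutant sum lay above every wild-type sum. Radial glia, red blood cell and choroid plexus sums overlapped between genotypes, led by Nes (-0.24 ± 0.05), Hbb-bt (-0.52 ± 0.54) and Kl (0.33 ± 0.15). Above 0 were 1 of 8 radial glia markers (median -0.17), 3 of 6 tested red blood cell markers and 6 of 6 choroid plexus markers (median 0.12). These sums describe the bulk tissue and do not show which cells hold the receptors, and edgeR called 0 genes of the 10 marker lists.

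The wider pathway was read from a list of 88 other genes in the files, of which 84 passed the filter on low counts. EdgeR's quasi-likelihood test with Benjamini-Hochberg adjustment over all genes called 0 of them, with 0.0199% of all tested genes called. At an unadjusted p under 0.05 it gave 11 higher and 4 lower, or 17.9% of the list against 13.7% of all genes, which split into 6.89% higher and 6.84% lower. DESeq2's Wald test called 2, Cdkn1a and Smad9, with 2.48% of all the genes it tested called. Above 0 were 59 of the 84 (70.2%) with a median log2 fold change of 0.06, beside 50.3% and 0.00 for all tested genes. The genotypes did not overlap for 7.14% of the list and 6.15% of all tested genes.

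Ligand genes lay mostly above 0, in 14 of 16 tested, with a median of 0.17. Gdf10, a ligand of the TGF-beta family, was at 20.2 ± 2.64 CPM in mutants against 16.2 ± 1.24 CPM for wild type (SD, n = 4 each; log2 fold change 0.33 ± 0.10, edgeR adjusted p = 0.247). Bmp3, which encodes an atypical BMP, was at 0.49 ± 0.17 (adjusted p = 0.290), and 0.21 with the library set as a term. None of the 16 was called by edgeR or DESeq2. In edgeR 2 (12.5%) had an unadjusted p under 0.05, beside 13.7% of all tested genes.

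Of 9 other receptors and co-receptors 6 were above 0 (median 0.02). Acvr2a, an activin type II receptor, was lower in every mutant library, at 147 ± 3.13 CPM against 159 ± 6.52 CPM (log2 fold change -0.11 ± 0.04, edgeR adjusted p = 0.318). Neo1, the neogenin receptor that binds BMP co-receptors of the RGM family, was at -0.11 ± 0.07 (adjusted p = 0.473), and at -0.02 with the library set as a term.

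Extracellular inhibitors and latency proteins had a median of 0.03 with 15 of 21 above 0. The BMP antagonist Grem1 was at -0.39 ± 0.13 (edgeR adjusted p = 0.270), and at -0.23 with the library set as a term. Of the 21 genes, 3 were higher and 1 was lower at an unadjusted p under 0.05 in edgeR. That is 19.0% of them, beside 13.7% of all tested genes.

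Of the 8 Smads, 6 were above 0 with a median of 0.05. Smad9, a receptor-activated Smad of the BMP branch, was at 4.04 ± 0.86 CPM in mutants against 2.44 ± 0.54 CPM for wild type (log2 fold change 0.73 ± 0.19, edgeR adjusted p = 0.203, DESeq2 adjusted p = 0.0174), with 0.31 within set 1 and 0.84 within set 2. Smad4, the Smad shared by both branches, was at -0.07 ± 0.05 (adjusted p = 0.477). Of 12 intracellular regulators 5 were above 0 (median -0.00), and the repressor Tgif2 and the ubiquitin ligase gene Nedd4l were at -0.21 ± 0.10 and -0.10 ± 0.05 (adjusted p = 0.388 and 0.379). Tgif2 was at -0.07 with the library set as a term.

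Among 18 genes known as targets of the pathway, 13 were above 0 with a median of 0.08. In edgeR 7 of them (38.9%) had an unadjusted p under 0.05, beside 13.7% of all tested genes. The genotypes did not overlap for 4 higher and 1 lower (27.8%), beside 6.15% of all tested genes. The list was chosen with earlier results of these data known, so nothing is read from these shares. Cdkn1a, the gene for the p21 inhibitor of the cell cycle and also a p53 target, had the smallest p, at 23.0 ± 1.27 CPM in mutants against 16.3 ± 0.72 CPM for wild type (0.49 ± 0.06, edgeR adjusted p = 0.0529). With the library set as a term its adjusted p was 0.0110. Tagln, which encodes the smooth muscle protein transgelin, was at 2.88 ± 0.24 CPM and 2.04 ± 0.32 CPM (0.50 ± 0.14, adjusted p = 0.237). Besides these, Junb was higher and Tsc22d1 was lower in every mutant library, and both were picked after their values were seen. Junb stood at 0.29 ± 0.10 and Tsc22d1 at -0.10 ± 0.04 (edgeR adjusted p = 0.284 and 0.291). The BMP targets Id1, Id3 and Id4 were at -0.14, 0.08 and 0.02, and Id2 at -0.28 ± 0.08 (adjusted p = 0.246), all named outside the rule. With the library set as a second term Id1 was at 0.12 and Id4 at -0.10, so their signs turned, and Id2 was at -0.16.

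**Figure D5:**
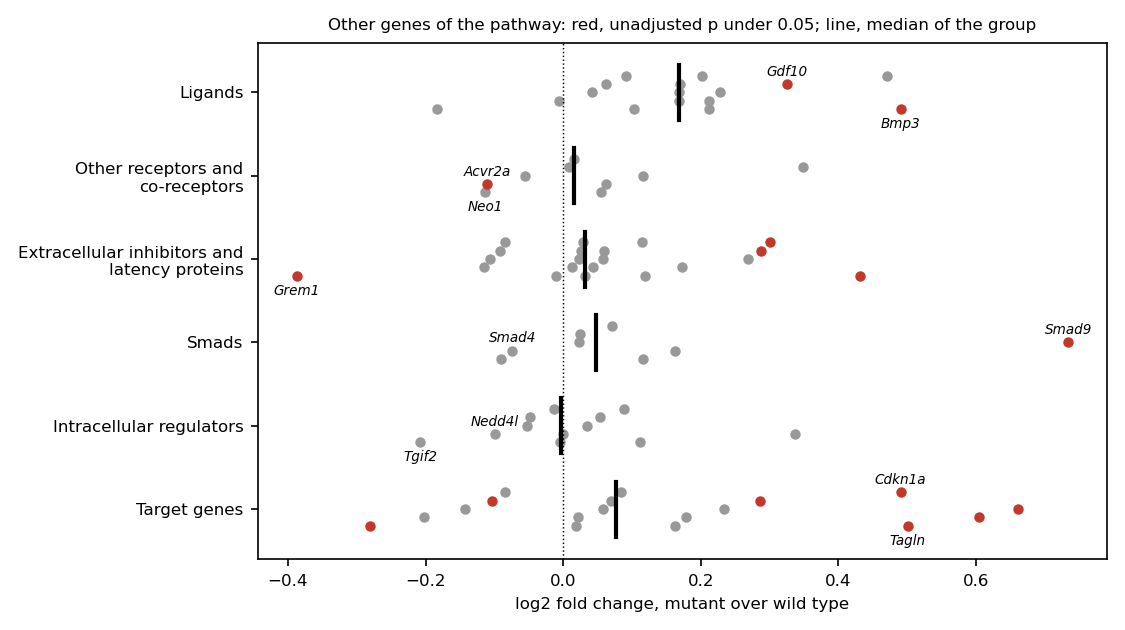
Log2 fold change, mutant over wild type, of the 84 tested genes of the wider pathway by role, 1 point per gene (red, unadjusted p under 0.05), with the median of each role as a black line and genes of small p named. The medians run from -0.00 for intracellular regulators to 0.17 for ligands, and no gene passed the adjusted threshold in edgeR's fit on genotype alone.

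The 5 protein-coding genes whose log2 CPM over the 8 libraries was most like that of Eng were Iqsec3 (Pearson r = 0.98), Arsi (0.98), Inpp5d (0.97), Ddx11 (0.97) and Adcy7 (0.96). The 8 points share genotype, library set and depth, and the 5 genes are the highest of all those compared, so r is a description. Their log2 fold changes were 0.24, 0.49, 0.23, 0.21 and 0.48, in that order.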

How the data were processed

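Messenger RNA of 4 mutant and 4 wild-type cortex libraries was analysed. The authors deposited, for each transcript, an estimated count of reads and a TPM value per library, per the file headers. Per the submitters' processing notes they used Salmon 0.12.0, DESeq2 and the GRCm38 build. Strand use and read filters: not given in the sources used here. A comparison table that the authors deposited holds log2 fold changes, p-values, adjusted p-values and a mean normalized signal per gene, with no statement of its model.

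All 52 transcripts of the 10 genes matched GENCODE M21 in name and length. Gene counts are rounded sums of the estimated counts of a gene's transcripts, and gene TPM are sums of theirs. Genotypes were compared over 20097 genes with edgeR 4.0.16 in R 4.3.3 (default filter on low counts, TMM, two-sided quasi-likelihood F test on genotype alone, Benjamini-Hochberg, threshold 0.05). Each standard error is the fold divided by the root of F. The fit was tested on simulated data. The 10 genes, the lists and the alternatives were chosen with earlier results of these data known. Alternatives were DESeq2 1.42.0, limma-voom (limma 3.58.1), RLE factors, no filter, a filter of 5 CPM in 4 or more libraries, a replicate block, the library set as a term, each library left out, and log2(TPM + 0.1). Differences within sets use log2 CPM with a prior count of 2.

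The genes named were the 10, of each role of the wider pathway the 2 with the smallest p where none was called, of each marker list the member with the smallest p, and the 5 genes most like Eng among protein-coding genes of average log2 CPM of at least 1, leaving out predicted genes. Promoter sequences are from RefSeq (GRCm38.p6) and transcript sequences from GENCODE. Protein sequences were not used here. The values of some pathway genes are not reported here, though the genes remain in the counts.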

Additional observations from a re-analysis of the deposited data

Results flagged for a closer look

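In 66 groups of 4 libraries checked for a library far from the others, 4 stood out, and chance alone gives about 1 in 20. Tgfbr3 was at 17.8 CPM in mutant replicate 4, with the next mutant at 11.5 CPM. The summed endothelial markers were at 586 CPM in the same library, with the next mutant at 480.5 CPM. Neo1 was at 498 CPM in the highest mutant library, with the next at 435 CPM. The summed radial glia markers were at 1254 CPM in wild-type replicate 2, with the next wild-type library at 1218 CPM. No cause was tested for any of them.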

How the results depend on the processing

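The log2 fold change of Eng lay between 0.34 and 0.43 over 17 alternatives and moved by less than 1 SD of the libraries in each. Over the 10 genes, 159 of 161 alternative values moved by less than 1 SD, the exceptions being Tgfbr1 and Bmpr1a, and 8 changed sign, all of Tgfbr3, Bmpr1a, Tgfbr2, Bmpr2 or Tgfb2. The number of all genes called, 4, was 401 with DESeq2, 121 with the library set as a term, 13 with no low-count filter and 20 with the replicate block, and ranged from 3 to 699 when 1 library was left out, the 699 coming without mutant replicate 4, and 14 being called without wild-type replicate 1. The number of wider pathway genes called, 0, was 2 with DESeq2 (Cdkn1a and Smad9) and 1 (Cdkn1a) with RLE size factors, with the library set as a term, with no low-count filter, with the strict filter and with the replicate block. It ranged from 0 to 3 when 1 library was left out, with 3, Cdkn1a among them, without mutant replicate 4 and 1 (Cdkn1a) without wild-type replicate 1. The cause was not tested. Libraries with the same replicate number share no label beyond it, the correlations of their deviations from the genotype means were 0.24, -0.03, -0.08 and 0.32 for numbers 1 to 4, and not every mutant correlated best with its own number. The replicate block called 0 of the 10 genes. None of the 12 pathway genes chosen by the naming rule changed sign in 178 alternative values. The rule took genes of small p in these same data, which favours a stable sign, so nothing is read from this. Of the 10 genes, Bmpr1b had the fewest reads, 231 in the shallowest case, and no difference between its transcripts was read at that depth.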
